A study of Mus musculus with 4 samples.

Results

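The 6 genes described here, Mybl1, Rgs13, Nuggc, Neil1, Plxnb2 and Basp1, are named for germinal centre B cells. They were chosen by name with measured values of these same libraries already known, so that every difference between libraries given for them is a description without a test. All 6 were found among the 41342 named genes of the count table, and all 6 were among the 11286 genes that averaged 50 or more counts per library. Total RNA was sequenced from CD43-depleted splenocytes, which are spleen cells left as B cells after those carrying CD43 are removed, of mice in a 129 background. ΔleftPAL mice lack the hs3a and hs1,2 enhancers that lie downstream of the IgH constant genes, in the 3'RR, together with the inverted repeats (IRIS) between them. ΔIRIS mice lack those repeats but carry hs1,2 and an inverted copy of hs3a. Both mutations are germline deletions made in embryonic stem cells, are present in all cells of the animal and were freed of their selection cassette by cre. For each genotype, 1 library came from freshly purified (resting) B cells and 1 from B cells kept for 48 h in medium with LPS at 5 μg per ml. LPS is the lipopolysaccharide of bacterial walls, which B cells sense through a Toll-like receptor. The legend of the study gives male mice 8 to 12 weeks old, and the mice behind these libraries are not described as immunised. Each library is a pool of B cells, from 4 animals by the sample descriptions, so that n = 1 per group and the spread between mice is not known. The wt libraries were not analysed here.

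Germinal centres are the sites in spleen and lymph nodes where B cells that have met antigen divide, mutate their immunoglobulin genes and are selected for better binding. Their cells switch on a programme led by the transcriptional repressor Bcl6, which holds back plasma cell differentiation. Resting follicular B cells lack most of this programme. LPS in culture drives division, plasmablast formation and some class switching without forming germinal centres.

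Among the 6 genes, Mybl1 encodes A-MYB, a DNA-binding transcription factor of dividing germinal centre cells. Rgs13 encodes a regulator of G protein signalling that dampens the response to chemokines. Plxnb2 encodes plexin B2, a surface receptor of semaphorins. Nuggc encodes a nuclear GTPase of germinal centre B cells, and Neil1 a DNA glycosylase that removes oxidised bases. Basp1 encodes a membrane-attached signal protein best known from neurons.

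In the gene model of the authors (mm10), Mybl1 (ENSMUSG00000025912) lies on the minus strand of chromosome 1 from 9667415 to 9700209. Rgs13 (ENSMUSG00000051079) lies on the same strand of chromosome 1 from 144138654 to 144177372. Nuggc (ENSMUSG00000061356) is the only one of the 6 genes on a plus strand, on chromosome 14 from 65598546 to 65648531. Neil1 (ENSMUSG00000032298) lies on the minus strand of chromosome 9 from 57142800 to 57148305. Plxnb2 (ENSMUSG00000036606) and Basp1 (ENSMUSG00000045763) lie on the minus strand of chromosome 15, from 89155549 to 89171120 and from 25363285 to 25413764. The counted exons of these genes are between 1655 bases long (Rgs13) and 7119 bases long (Plxnb2). In GENCODE release M21, 0 other genes share exon bases with any of the 6.

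RefSeq holds a promoter window (250 bases before to 50 after the start, GRCm38.p6) at the start of a counted transcript for Rgs13, Neil1 and Basp1. For Rgs13 and Neil1 other counted transcripts start elsewhere. The 250 bases before each start are shown because the 3 genes differ in base composition here. Of the 3, Rgs13 was the one 2-fold apart between the resting genotypes. All 3 are read on the minus strand, 5′ to 3′, at chr1:144177373-144177622 (Rgs13), chr9:57148306-57148555 (Neil1) and chr15:25413765-25414014 (Basp1). Capitals mark matches on either strand to the 5 motifs searched, which were the GC box spelled as GGGCGG, the octamer spelled as ATGCAAAT, the TATA box spelled as TATAAA, the E-box spelled as CAGGTG and the GAS element spelled as TTCNNNGAA.
Rgs13: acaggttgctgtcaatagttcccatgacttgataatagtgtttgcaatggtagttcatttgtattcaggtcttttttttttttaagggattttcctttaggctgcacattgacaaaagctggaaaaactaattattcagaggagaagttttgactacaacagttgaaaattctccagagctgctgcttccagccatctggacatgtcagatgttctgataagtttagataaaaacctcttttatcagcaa
Neil1: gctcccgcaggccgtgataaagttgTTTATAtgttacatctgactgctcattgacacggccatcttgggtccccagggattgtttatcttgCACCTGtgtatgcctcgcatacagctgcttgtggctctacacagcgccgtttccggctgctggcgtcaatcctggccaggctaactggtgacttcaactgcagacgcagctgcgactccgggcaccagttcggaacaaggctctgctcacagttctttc
Basp1: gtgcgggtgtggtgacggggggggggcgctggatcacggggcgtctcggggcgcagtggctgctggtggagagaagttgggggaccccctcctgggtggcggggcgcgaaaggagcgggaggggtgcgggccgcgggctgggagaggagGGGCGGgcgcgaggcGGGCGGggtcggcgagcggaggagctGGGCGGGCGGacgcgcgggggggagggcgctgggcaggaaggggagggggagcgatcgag
The whole 300-base window of Rgs13 had 36.7% G and C and 0 CpG, and held no match. That of Neil1 had 56.0% G and C and 17 CpG, with 1 match to the TATA box and 1 to the E-box. That of Basp1 had 78.0% G and C and 38 CpG, with 4 matches to the GC box, of which a pair overlap. Over all 32851 windows the median was 52.7% G and C and 7 CpG, and 5.33%, 59.7% and 98.1% of the windows had less G and C than those of Rgs13, Neil1 and Basp1. The share of all windows with a match was 35.7% for the GC box, 1.74% for the octamer, 13.6% for the TATA box, 20.2% for the E-box and 8.3% for the GAS element. A match is a match of letters only.

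The 4 libraries held between 23615496 and 29776108 counts over named genes. Levels are given as counts and as CPM, counts scaled to a common library size by edgeR's TMM factors, with 95% exact Poisson intervals. Ratios between libraries carry 95% Clopper-Pearson intervals. Both kinds of interval speak of counting error alone and leave out the spread between mice, pools and preparations. As PCR can copy 1 molecule many times, they may be too narrow even for counting error. In bulk RNA, fewer cells of a type and less RNA per cell cannot be told apart. B lineage genes (Cd79a, Cd79b, Ms4a1, Cd22 and Blnk) were present in all 4 libraries, at summed levels between 2021 and 3233 CPM.

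Mybl1 was lowest in resting ΔIRIS cells and highest after LPS. It had 338 counts in resting ΔleftPAL cells (13.8 CPM, interval 12.4 to 15.4) and 73 in resting ΔIRIS cells (2.51 CPM, 1.97 to 3.16). After LPS it had 601 counts in ΔleftPAL (22.3 CPM, 20.6 to 24.2) and 810 in ΔIRIS cells (27.6 CPM, 25.8 to 29.6). The intervals of the 4 libraries did not overlap.

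Nuggc was high in a single library. It had 240 counts in resting ΔleftPAL cells (9.83 CPM, 8.62 to 11.2), against 35 in resting ΔIRIS cells (1.20 CPM, 0.839 to 1.67). The LPS libraries had 57 counts in ΔleftPAL (2.12 CPM, 1.60 to 2.74) and 52 in ΔIRIS cells (1.77 CPM, 1.32 to 2.33). The intervals of the LPS libraries overlapped each other, and both overlapped that of resting ΔIRIS cells.

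Rgs13 was highest at rest in both genotypes. It had 205 counts in resting ΔleftPAL cells (8.39 CPM, 7.28 to 9.62) and 114 in resting ΔIRIS cells (3.92 CPM, 3.23 to 4.71). After LPS only 22 counts were left in ΔleftPAL (0.817 CPM, 0.512 to 1.24) and 48 in ΔIRIS cells (1.64 CPM, 1.21 to 2.17). The resting genotypes did not overlap, whereas the intervals of the LPS libraries met at their ends.

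Neil1, Plxnb2 and Basp1 were at near levels in both resting libraries. Neil1 had 817 and 1107 counts in resting ΔleftPAL and ΔIRIS cells (33.4 and 38.1 CPM), and 347 and 277 after LPS (12.9 and 9.45 CPM). Plxnb2 had 1055 and 1277 counts at rest (43.2 and 43.9 CPM), and 544 and 1053 after LPS (20.2 and 35.9 CPM). Basp1 had 301 and 357 counts at rest (12.3 CPM in each), and 168 and 83 after LPS (6.24 and 2.83 CPM). Each of these 3 genes was lower after LPS than at rest in both genotypes, and for Plxnb2 the LPS-activated ΔIRIS cells stayed near the resting level.

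**Figure D1:**
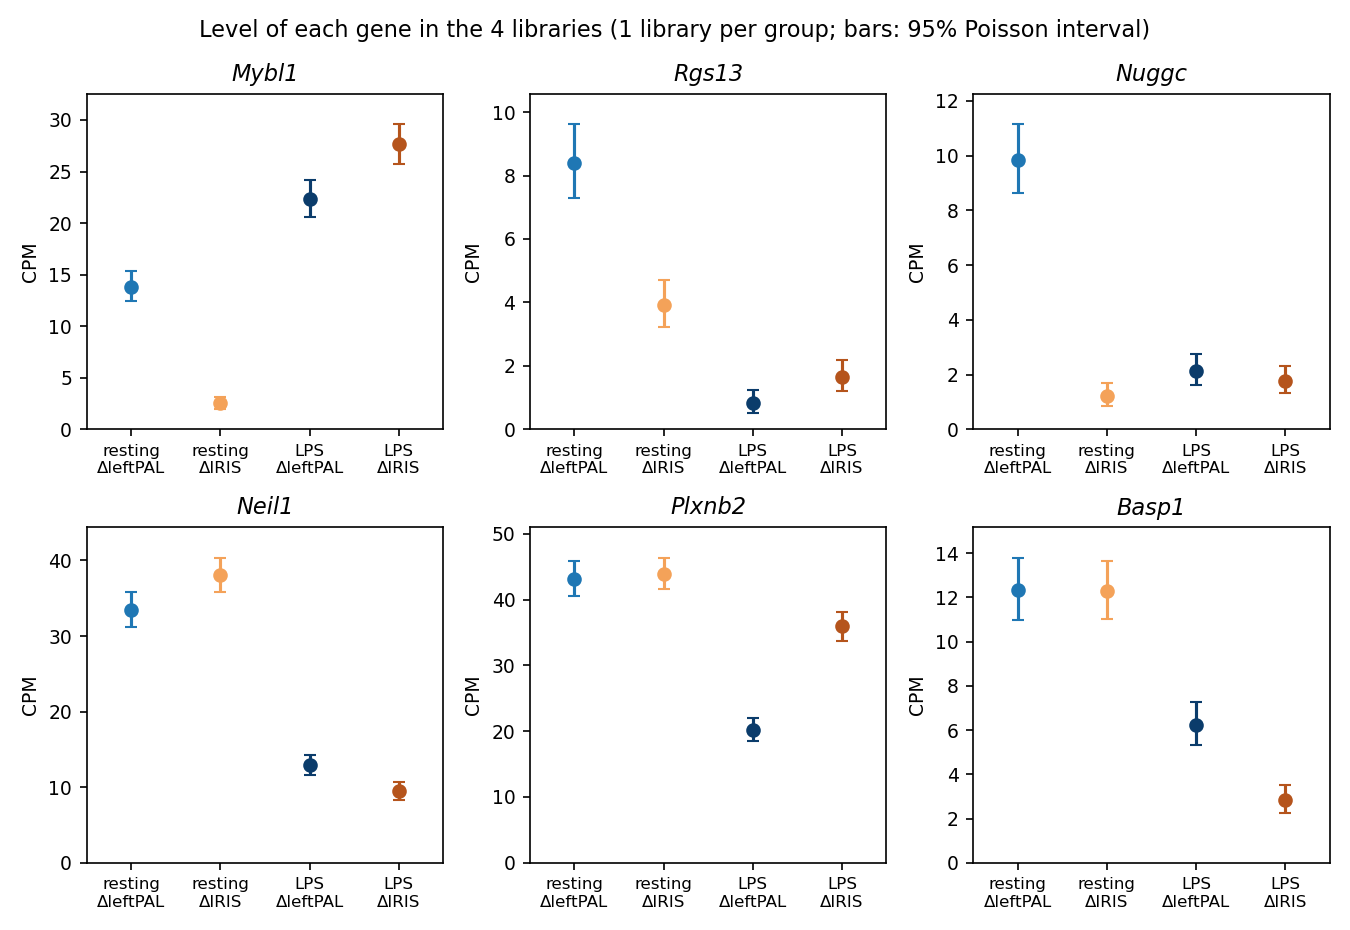
Level of each of the 6 genes in CPM (vertical axis, from 0, with its own scale per gene) in the 4 libraries, 1 point per library, with bars for the 95% Poisson interval. Mybl1 falls to 2.51 CPM in resting ΔIRIS cells and is above 22 CPM in both LPS libraries, Nuggc stands at 9.83 CPM in resting ΔleftPAL cells alone, and Neil1 and Basp1 are high in both resting libraries.

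The comparison of the resting libraries asks how the germinal centre genes of unstimulated B cells differed between cells without hs3a, hs1,2 and the repeats and cells that lacked the repeats and carried hs3a inverted. As log2 ratios of ΔIRIS over ΔleftPAL, Nuggc was at -3.03 (interval -3.58 to -2.51), an 8.16-fold lower level in ΔIRIS cells. Mybl1 was at -2.46 (-2.85 to -2.09), a 5.51-fold lower level, and Rgs13 at -1.10 (-1.44 to -0.76), a 2.14-fold lower level. The other 3 genes were close to 0, with Neil1 at 0.19 (0.06 to 0.32), Plxnb2 at 0.02 (-0.09 to 0.14) and Basp1 at -0.01 (-0.23 to 0.22). The sign of the last 2 ratios changed with the scaling. To count genes, a prior of 0.5 CPM was added to each level and a log2 ratio of at least 1 in size was called 2-fold. By this count 3 of the 6 genes were 2-fold lower and 0 were 2-fold higher in resting ΔIRIS cells, where of all genes 1.02% were 2-fold lower and 1.83% 2-fold higher. These genes were chosen with this contrast known, so that nothing is read from the share. Mitochondrial rRNA took 16.0% of the counts in resting ΔleftPAL and 21.8% in resting ΔIRIS cells, and its part in the difference was not tested. With the prior, Rgs13 lay just past the limit, at -1.01, and with DESeq2 size factors or TMM factors without immunoglobulin genes only 2 of the 6 genes were 2-fold lower, without Rgs13. The median over the 6 genes was -0.51, against 0.00019 over all genes, of which the middle 90% ran from -0.55 to 0.68.

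**Figure D2:**
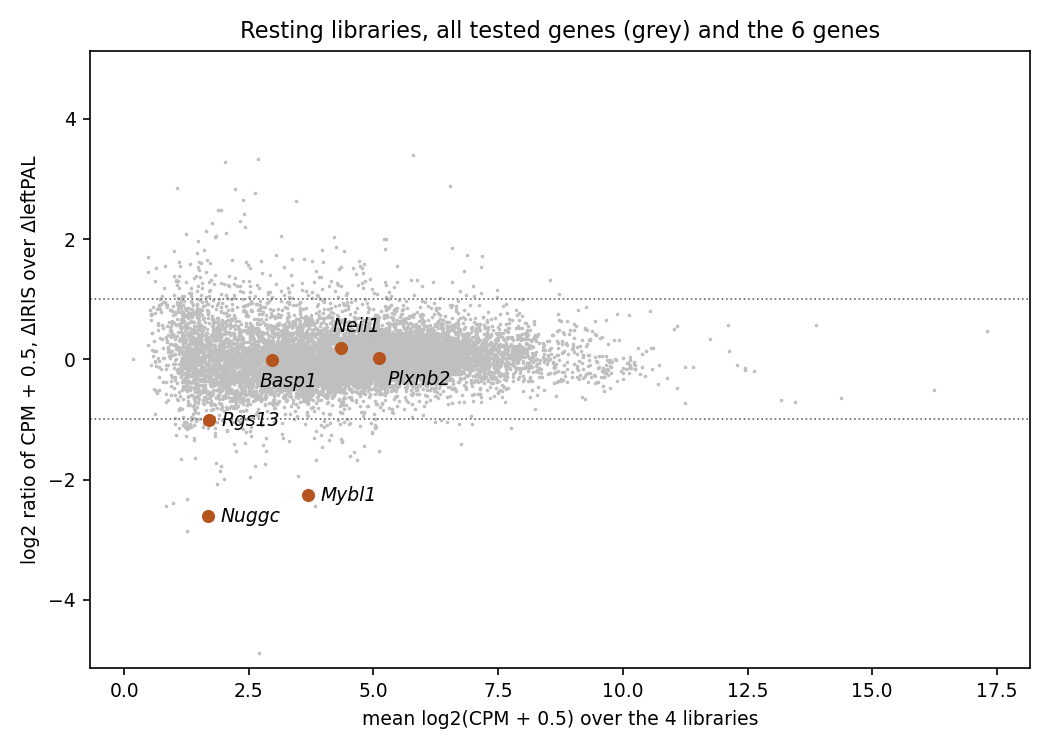
Log2 ratio of resting ΔIRIS over resting ΔleftPAL cells (vertical axis, on CPM + 0.5) against the mean log2(CPM + 0.5) over the 4 libraries (horizontal axis), for the 11286 genes tested (grey) and the 6 genes (brown), with dotted lines at 2-fold. Nuggc, Mybl1 and Rgs13 lie at or under the lower line, and Neil1, Plxnb2 and Basp1 within the bulk of genes.

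In LPS-activated cells the genotypes were nearer to each other than at rest for Mybl1 and Nuggc, and for Rgs13 the direction turned. As log2 ratios of ΔIRIS over ΔleftPAL, Mybl1 was at 0.31 (interval 0.15 to 0.46) and Nuggc at -0.25 (-0.82 to 0.31). The sign of the Mybl1 ratio turned in kallisto TPM, to -0.15. Rgs13 was at 1.00 (0.25 to 1.80), from 48 against 22 counts, and with the prior at 0.70, within 2-fold. Plxnb2 was at 0.83 (0.68 to 0.98), higher in ΔIRIS cells. Neil1 was at -0.45 (-0.68 to -0.21) and Basp1 at -1.14 (-1.54 to -0.75), both lower in ΔIRIS cells. Of the 6 genes, 1 (Basp1) was 2-fold lower and 0 were 2-fold higher, against 1.41% and 0.567% of all genes. Basp1 was also just past the limit, at -1.02 with the prior, and was within 2-fold with total counts or DESeq2 size factors as the scaling. The median of the 6 genes was 0.05, against 0.03 over all genes. In kallisto TPM these medians were -0.17 and -0.04.

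The change from resting to LPS-activated cells differed among the 6 genes. In ΔleftPAL cells the log2 ratio of LPS over resting was -3.36 for Rgs13 (interval -4.07 to -2.72), a 10.3-fold fall, and -2.22 for Nuggc (-2.66 to -1.79). It was -1.38 for Neil1 (-1.56 to -1.19), -1.10 for Plxnb2 (-1.25 to -0.95) and -0.98 for Basp1 (-1.26 to -0.71). Mybl1 alone was higher after LPS, at 0.69 (0.49 to 0.89). With the prior, 4 of the 6 genes were 2-fold lower and 0 were 2-fold higher, where 15.5% of all genes were 2-fold lower and 20.1% 2-fold higher. Plxnb2 and Basp1 were near the limit, and the count was 3 with kallisto estimated counts and 5 with total counts or TPM. The median was -1.21 for the 6 genes and 0.12 for all genes.

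In ΔIRIS cells Mybl1 had a log2 ratio of LPS over resting of 3.46 (3.11 to 3.83), or 2.43 in kallisto TPM. Basp1 was at -2.12 (-2.48 to -1.77), Neil1 at -2.01 (-2.21 to -1.82) and Rgs13 at -1.26 (-1.78 to -0.76). Plxnb2 was at -0.29 (-0.41 to -0.17). Nuggc was at 0.56 with an interval from -0.09 to 1.22 that held 0, so that no change of Nuggc was detectable at this depth. With the prior, 1 of the 6 genes (Mybl1) was 2-fold higher and 3 were 2-fold lower, where 21.6% of all genes were 2-fold higher and 17.3% 2-fold lower. The median was -0.67 for the 6 genes and 0.13 for all genes.

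**Figure D3:**
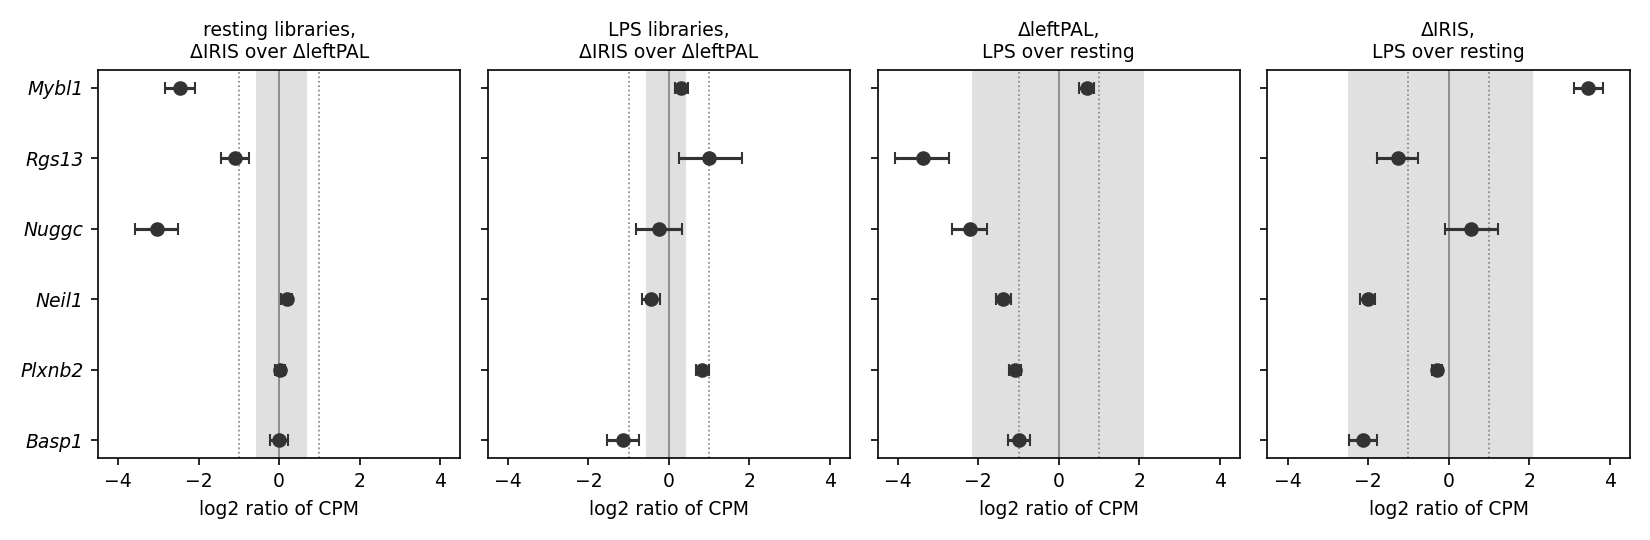
Log2 ratio of CPM (horizontal axis) of each of the 6 genes in the 4 comparisons, with bars for the 95% Clopper-Pearson interval, dotted lines at 2-fold and a grey band for the middle 90% of all genes tested. Mybl1 and Nuggc lie far below the band between the resting libraries and within it between the LPS libraries.

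The 4 comparisons share libraries, and their values are therefore set side by side. The log2 change on LPS in ΔIRIS minus that in ΔleftPAL cells was 2.77 for Mybl1, 2.77 for Nuggc, 2.10 for Rgs13 and 0.81 for Plxnb2. For Mybl1 it was smaller in kallisto TPM, where the changes were 2.43 in ΔIRIS and 0.61 in ΔleftPAL cells. It was -0.63 for Neil1 and -1.13 for Basp1. For Mybl1 and Nuggc the resting libraries were the ones farther apart, and for Neil1, Plxnb2 and Basp1 the LPS libraries were. Rgs13 was about as far apart in both pairs, in opposite directions.

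Levels of different genes can be compared only per length, here as FPKM, the CPM per kilobase of counted exon. By FPKM, Neil1 was the highest of the 6 genes in 3 libraries, at 17.9 FPKM in resting ΔleftPAL, 20.4 in resting ΔIRIS and 6.88 in LPS-activated ΔleftPAL cells. In LPS-activated ΔIRIS cells Mybl1 (5.12 FPKM), Neil1 (5.05) and Plxnb2 (5.05) were not separated by counting error. Basp1 and Plxnb2 came next at rest, at 6.67 and 6.07 FPKM in ΔleftPAL and 6.65 and 6.17 in ΔIRIS cells, with intervals that overlapped. By FPKM the lowest gene was Mybl1 in resting ΔleftPAL cells (2.56 FPKM), Rgs13 in LPS-activated ΔleftPAL cells (0.493) and Nuggc in both ΔIRIS libraries (0.425 at rest and 0.626 after LPS). In both LPS libraries Rgs13 and Nuggc were not separated by counting error, and neither were Mybl1 and Nuggc in resting ΔIRIS cells. Part of this order turned in the authors' kallisto TPM, which weighs each transcript by its own length. There Mybl1 was above Neil1 in LPS-activated ΔleftPAL cells (10.3 and 9.87 TPM) and above Nuggc in resting ΔleftPAL cells (6.76 and 4.81 TPM). In ΔIRIS cells these pairs kept their order by FPKM. Mybl1 was above Neil1 after LPS (9.26 and 7.06 TPM) and above Nuggc at rest (1.72 and 0.593 TPM). Among the 11286 genes, Neil1 stood at the 80.6th and 82.0th percentile of FPKM in resting ΔleftPAL and ΔIRIS cells. Nuggc stood at the 31.0th percentile in resting ΔleftPAL and at the 2.13th in resting ΔIRIS cells, where Mybl1 stood at the 2.45th.

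The authors' kallisto estimates, made from the same reads against transcripts, split the genes by transcript. For the 6 genes gene counts divided by estimated counts gave between 0.870 (Basp1 in LPS-activated ΔleftPAL cells) and 1.04 (Nuggc in LPS-activated ΔIRIS cells). Basp1 has a single transcript in that table. The longest transcript of Mybl1 (4980 bases) held 78.8% of its estimated counts in resting ΔleftPAL, 65.5% in resting ΔIRIS cells, and 76.8% and 82.1% after LPS in the same genotypes. Neil1 was split between 2 transcripts, of 1693 and 1601 bases, and the former held between 57.1% and 63.9%. The promoter window shown for Neil1 lies at the start of the latter. Of Plxnb2, the transcript that starts farthest upstream held 88.9% and 96.8% at rest and 78.2% and 84.3% after LPS, in ΔleftPAL and ΔIRIS cells respectively. The promoter window of Rgs13 lies at the start of a transcript that held 31.6% and 52.1% in resting ΔleftPAL and ΔIRIS cells. The shares of the Rgs13 transcripts rest on few reads after LPS and are not compared.

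The profiles of the 6 genes over the 4 libraries were unlike each other. The distance between 2 profiles was measured as the Euclidean distance of mean-centred log2(CPM + 0.5), and it ranged from 0.487 between Neil1 and Basp1 to 4.02 between Mybl1 and Neil1. Against the median profile of the 6 genes, Neil1 was nearest (0.731) and Mybl1 farthest (3.32). The 10 other genes nearest to that median profile, immunoglobulin genes left out, were Arhgef10, Taz, Kmo, Snx8, Mbd6, Smim14, Ap5z1, Itpr3, Ddx58 and Stx16, at distances of 0.0732 to 0.0974. This list depends on the prior, as 0 of the 10 genes were among the nearest 10 with a prior of 5 CPM. The nearest genes of single members were picked after their values were seen. Ifit1, an interferon-induced gene, lay nearest to Mybl1 (distance 0.570), with 540, 202, 1070 and 1209 counts in resting ΔleftPAL, resting ΔIRIS and LPS-activated ΔleftPAL and ΔIRIS cells. Usp18, a protease that removes the interferon-induced modifier ISG15, lay nearest to Nuggc (0.543), with 757, 224, 201 and 210 counts in the same order. Next to Nuggc came Ly6c2 (0.626), with 337, 107, 141 and 106 counts, and then S1pr2, a receptor for sphingosine 1-phosphate (0.741). Those nearest to Rgs13, Plxnb2 and Basp1 were Gm4955 (0.317), Wfdc17 (0.156) and Tspan15 (0.160). Nearest to Neil1 was Foxo3 (0.0516), a transcription factor of quiescent cells.

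Beside the 6 genes, 23 other genes active in germinal centre B cells are reported. Of these, 22 passed the minimum of 50 counts and Mef2b, with at most 6 counts in any library, did not. The list also holds genes high at rest. Spib, Irf8, Ebf1, Cxcr5 and Pax5 were at 372, 263, 184, 179 and 140 CPM in resting ΔleftPAL cells. The median of the list therefore does not speak of germinal centre cells alone. Between the resting libraries 1 of the 22 was 2-fold lower in ΔIRIS cells and 2 were 2-fold higher (1.02% and 1.83% of all genes), 10 ratios were below 0 and 12 above it, and the median was 0.03. The lower gene was S1pr2, a receptor that keeps B cells in the germinal centre, with 181 counts in resting ΔleftPAL and 40 in resting ΔIRIS cells and a log2 ratio of -2.43 (interval -2.96 to -1.93). The 2 higher genes were Cxcr4, a chemokine receptor of the dark zone (170.8 and 475.1 CPM), at 1.48, and Cd83, a surface activation marker (149 and 331 CPM), at 1.15. Bcl6 was at -0.30 (-0.42 to -0.17), with 1034 and 1003 counts. Efnb1, a surface ligand of Eph receptors, was at -1.12 (-1.61 to -0.65), with 108 and 59 counts, but within 2-fold once the prior was added (-0.96). Fas, a death receptor, was at -0.80 (-1.23 to -0.37), with 114 and 78 counts. Also lower and within 2-fold were Cxcr5 at -0.59 (-0.65 to -0.52) and Gcsam at -0.56 (-0.96 to -0.16). Stap1 at -0.41, Klhl6 at -0.36 and Irf8 at -0.13 were lower too. Other genes of the list were higher in ΔIRIS cells and within 2-fold. Foxo1 was at 0.86 (0.79 to 0.93), Cd86 at 0.78 (0.68 to 0.87), Ung at 0.64 (0.36 to 0.92) and Gna13 at 0.50.

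**Figure D4:**
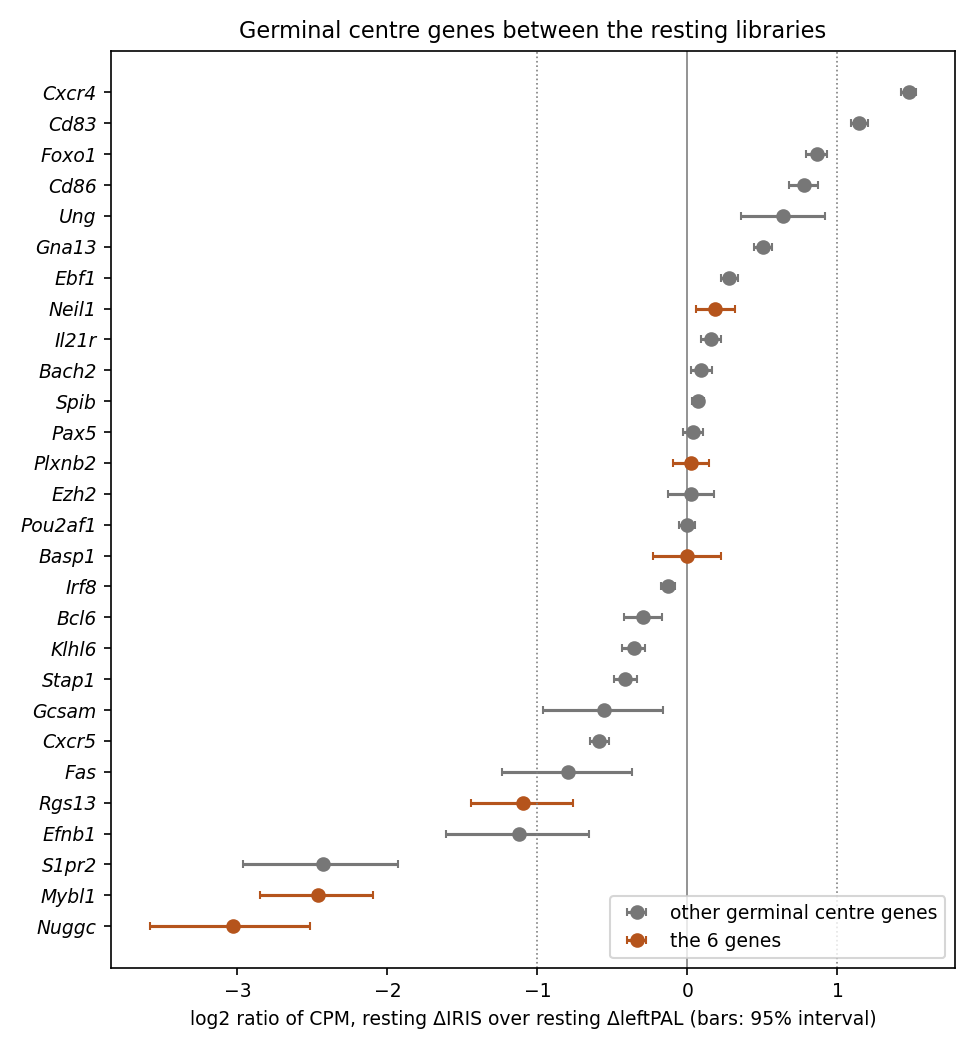
Log2 ratio of resting ΔIRIS over resting ΔleftPAL cells (horizontal axis) for the 22 other germinal centre genes that passed the count minimum (grey) and the 6 genes (brown), ordered by ratio, with bars for the 95% interval and dotted lines at 2-fold. Nuggc, Mybl1 and S1pr2 stand between -3.03 and -2.43, apart from the other genes, and Cxcr4 and Cd83 are past 2-fold in the other direction. Efnb1 lies past the line here, where no prior is added, and within 2-fold with it.

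Between the LPS libraries, 0 of these 22 genes were 2-fold apart in either direction (0.567% of all genes were higher and 1.41% lower), with a median of -0.06. On LPS, 7 of the 22 were 2-fold lower and 3 were 2-fold higher in ΔleftPAL cells, and 9 were 2-fold lower and 3 were 2-fold higher in ΔIRIS cells, with medians of -0.76 and -0.61. Of all genes, 15.5% were 2-fold lower and 20.1% higher in ΔleftPAL cells, and 17.3% and 21.6% in ΔIRIS cells. Bcl6 fell from 42.3 to 9.24 CPM in ΔleftPAL and from 34.5 to 10.3 CPM in ΔIRIS cells. Gcsam, a signalling adaptor of germinal centre cells, had 120 and 97 counts in resting ΔleftPAL and ΔIRIS cells and 0 in both LPS libraries, which is at least 44.1-fold and 32.6-fold lower when set against 3 counts per library. With the counting error of both libraries, the upper limits of its log2 ratio were -5.14 in ΔleftPAL and -4.70 in ΔIRIS cells. Ezh2, a histone methyltransferase of dividing cells, went the other way and was 6.36-fold and 7.32-fold higher after LPS.

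Genes of other cells were read in the same libraries. Between the resting libraries, the summed level of 6 T cell genes was 21.1 CPM in ΔleftPAL and 25.3 CPM in ΔIRIS cells, that of 5 NK cell genes 11.1 and 8.39 CPM, and that of the 7 myeloid genes found 368 and 480 CPM. Members of these lists went in different directions. Cd4 (273 and 496 counts) and Cd8a (84 and 202) were higher in ΔIRIS cells and made up most of the T cell sum, whereas the T cell receptor complex genes Cd3e (17 and 5), Cd3d (47 and 18), Cd3g (50 and 11) and Trac (44 and 4) were lower, in the direction of Nuggc, Mybl1 and Rgs13. The neutrophil genes S100a8 (86 and 20 counts) and S100a9 (128 and 24) were also lower in ΔIRIS cells, with log2 ratios of -2.36 and -2.67. Of the other myeloid genes, Lyz2 and Csf1r, genes of macrophages and monocytes, were higher, at 0.61 and 0.41, as was Emr1 at 0.29. Fcgr1 (190 and 173 counts) and Itgam (321 and 304) were lower, at -0.39 and -0.33. The erythroid genes summed to 41305 and 28663 CPM, and the stromal and follicular dendritic cell genes to 8.23 and 13.6 CPM. Of the follicular helper T cell genes, Il21 was at 0 in all 4 libraries, and the B cell gene Cxcr5 held most counts of that list. The switched constant genes summed to 103 CPM in resting ΔleftPAL and 52.1 CPM in resting ΔIRIS cells. Transcripts made before and after class switching are counted together in these genes. In ΔIRIS cells 4 of 5 were 2-fold lower (1.02% of all genes), the direction of Nuggc, Mybl1 and Rgs13. The fifth, Ighg3, had 653 and 982 counts and a log2 ratio of 0.34, higher in ΔIRIS cells. Memory B cell genes had 0 of 4 2-fold apart (1.02% of all genes were lower and 1.83% higher), and their summed level was 20.0 and 17.0 CPM. Nt5e was at -0.96 (-1.39 to -0.53) and Pdcd1lg2 at -0.53 (-0.81 to -0.25), lower in ΔIRIS cells. Zbtb32 was at -0.69 with an interval that held 0, and Cd80 was higher, at 0.90 (0.53 to 1.28). After LPS the sums for T cells were 0.186 and 0.102 CPM in ΔleftPAL and ΔIRIS cells, those for NK cells 1.08 and 0.716 CPM, those for myeloid cells 14.1 and 20.0 CPM and those for erythroid cells 58.2 and 124 CPM, all below the resting levels, as Rgs13, Neil1, Plxnb2 and Basp1 were. The myeloid gene Itgam was an exception in ΔIRIS cells, where its counts went from 304 to 450.

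The B cell states of the culture were read the same way. All 8 proliferation genes were 2-fold higher after LPS in each genotype, with medians of 3.58 in ΔleftPAL and 3.55 in ΔIRIS cells, in the direction of Mybl1. The 6 genes of naive and follicular B cells were all 2-fold lower in each genotype, with medians of -1.96 and -2.64, where 15.5% and 17.3% of all genes were lower. Of the plasmablast genes, 4 of 6 in ΔleftPAL and 3 of 6 in ΔIRIS cells were 2-fold higher after LPS, against 20.1% and 21.6% of all genes. In ΔIRIS cells Sdc1 and Irf4 had log2 ratios below 0, at -0.44 and -0.62. Between the resting libraries 0 of 8 proliferation genes were 2-fold apart, while 1 of 6 naive and follicular genes (Ccr7, 149 and 541 CPM) and 1 of 6 plasmablast genes (Irf4, 285 and 604 CPM) were 2-fold higher in ΔIRIS cells, against 1.83% of all genes. Between the LPS libraries 0 of the 6 plasmablast genes were 2-fold apart, and all 6 ratios were below 0, with a median of -0.50, where 0.567% of all genes were 2-fold higher and 1.41% lower. The part of these cells and states in the differences of the 6 genes was not tested, and genotype and pool of mice cannot be told apart with 1 pool per group.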

How the data were processed

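The authors mapped paired 150-nt reads of rRNA-depleted stranded RNA with STAR 2.4.0a to mm10 with Ensembl release 77, and deposited gene counts from featureCounts (Subread 1.4.6-p1; strand option 1, multi-mapping fragments counted at the primary alignment). They also deposited kallisto 0.42.3 estimated counts and TPM per transcript, whose index and settings are not given in the sources used here. Counts were scaled in R 4.3.3 with TMM factors of edgeR 4.0.16, and ratios, Poisson and Clopper-Pearson intervals were computed with scipy 1.17.1, pandas 2.3.3 and numpy 2.4.6 under Python 3.11.15. Figures were drawn with matplotlib 3.10.9. The row of genes without a name (0.00876% to 0.0264% of counts) was left out. The floor of 3 counts was 0.102 to 0.123 CPM. Mitochondrial rRNA took 16.0% to 21.8% of counts, most in resting ΔIRIS cells.

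With 1 library per group, no comparison of a pair of groups has residual degrees of freedom. A fit with additive effects of genotype and LPS over the 4 libraries was not run, and no p-value is given. The 6 genes and the gene lists were chosen with earlier results of these data known. Named genes are the 6 genes, genes of the lists and the 10 genes nearest to the median profile of the 6. Names outside this rule are given as picked with their values in view. A gene of the list of other germinal centre genes and a gene of the B lineage list are not reported here, and the counts, medians and sums of those lists leave them out. One of the 8 myeloid symbols listed was an alternative name of another.

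The calls and intervals were tested on simulated Poisson counts made from these libraries' means, with changes well past the 2-fold limit. Such counts hold no spread between mice or from PCR. The simulation therefore checked the code, and it does not speak for calls near the limit. The alternatives used size factors of DESeq2 1.42.0, total counts, TMM factors without immunoglobulin genes, kallisto estimated counts and TPM summed per gene, count minimums of 10, 200 or none, and a prior of 5 CPM. The number of mice behind a library is stated differently in the methods, a legend and the sample descriptions.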

Additional observations from a re-analysis of the deposited data

Results flagged for a closer look

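For 3 germinal centre genes the LPS culture of 1 genotype stood above and that of the other below its resting library, and the difference between the genotypes was not tested, as each group has 1 library. The log2 change in ΔIRIS minus that in ΔleftPAL cells was 2.77 for Nuggc, which was at -2.22 in ΔleftPAL and 0.56 in ΔIRIS cells. The interval of the ΔIRIS value held 0. It was 1.83 for S1pr2 (-1.06 in ΔleftPAL and 0.77 in ΔIRIS cells). It was -0.22 for Il21r, a cytokine receptor, at 0.01 in ΔleftPAL and -0.21 in ΔIRIS cells, where the interval of the ΔleftPAL value held 0.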

How the results depend on the processing

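Each comparison sets 1 library against 1, and leaving a library out leaves no comparison. A fit of the LPS change paired within genotype over all 4 libraries was not run. The 24 log2 ratios of the 6 genes moved by at most 0.09 with total counts, DESeq2 size factors or TMM factors without immunoglobulin genes, by at most 0.28 with kallisto estimated counts and by at most 1.03 in TPM, where Mybl1 was at -1.97 between the resting libraries, at -0.15 (from 0.31) between the LPS libraries and at 2.43 on LPS in ΔIRIS cells. The resting ratios of Plxnb2 (-0.01 with total counts, -0.03 in TPM) and Basp1 (0.01 with DESeq2 factors, 0.06 with kallisto counts) changed sign. The count of the 6 genes 2-fold lower between the LPS libraries fell to 0 with total counts and with DESeq2 factors, as Basp1 lay at the limit. That between the resting libraries fell from 3 to 2 with DESeq2 factors and TMM factors without immunoglobulin genes. On LPS it went from 4 to 5 (total counts, TPM) or 3 (kallisto counts) in ΔleftPAL and from 3 to 2 (kallisto counts) in ΔIRIS cells. The median of the 6 genes on LPS in ΔleftPAL cells was -1.06 with kallisto estimated counts. Numbers of all genes called depended on the minimum and the prior. With a minimum of 200 counts, 124 genes were higher and 58 lower between the resting libraries, 37 and 91 between the LPS libraries, and 1148 lower on LPS in ΔleftPAL cells, since fewer genes were tested. With no minimum 179 were lower between the resting libraries. With a prior of 5 CPM, 91 were higher and 37 lower between the resting and 13 and 70 between the LPS libraries, and 1072 and 1296 were lower on LPS in ΔleftPAL and ΔIRIS cells. In TPM 1399 and 1443 were higher on LPS, and the median of all genes moved from 0.12 to -0.20 in ΔleftPAL and from 0.13 to -0.18 in ΔIRIS cells. The cause was not tested. With the prior of 5 CPM, 0 of the 10 nearest genes were shared. Rgs13 and Nuggc, with 22 to 57 counts after LPS, are the least precise.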
